A study of Sus scrofa with 4 samples.

Results

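The genes described here encode proteins that hepatocytes secrete into blood plasma. A set of 59 gene symbols was looked up in the RefSeq annotation of the pig build Sscrofa11.1, and all 59 were found. F13B, which encodes a subunit of coagulation factor XIII, lies on a sequence not placed on a chromosome and was not assessed, which left 58 of the 16303 named protein-coding genes on chromosomes 1 to 18, X and Y. CRP and TF have 2 gene models each, so the 58 genes have 60 models. They were sorted by role into 13 carriers and acute-phase proteins, 9 apolipoproteins, 14 coagulation and fibrinolysis genes, 12 protease inhibitors and related genes, and 10 complement genes, counting VTN among the last.

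The study compared livers of sows late in pregnancy whose bile acids were high with livers of sows whose bile acids were low, a state that its design text calls normal. Chromatin carrying lactylated lysine 12 of histone H4 (H4K12la) was immunoprecipitated with the antibody PTM1411 and sequenced, from 1 library in each group, each with an input library. All samples are female, and the labels give hepatocytes as the cell type and no strain, age or number of animals. The files used here are the 2 lists of called peaks, 28283 peaks for the high bile acid library and 5735 for the low bile acid library. A list of histone peaks holds no RNA, so the hepatocyte label could not be checked against marker expression. A mark in more cells and more of the mark per cell cannot be told apart in such libraries.

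Hepatocytes transcribe the genes of albumin, fibrinogen, apolipoproteins and most clotting and complement proteins at very high levels, and their products enter the secretory pathway and the circulation. Several of these genes lie in clusters of related neighbours. Histone lactylation is an acyl mark derived from lactate, and acyl marks on histone tails are generally found at active promoters and enhancers.

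Of the 58 plasma protein genes, 30 had no called peak within 10 kb in either list (51.7%; exact Clopper-Pearson 95% interval 38.2 to 65.0%), against 32.1% of all named coding genes and 36.7% at like length, that is, among coding genes of the same length class, out of 10 classes. A summit lay within 1 kb of a gene end at 6 of the 58 genes in the high bile acid list (10.3%; 3.89 to 21.2%) and at 0 of 58 in the low bile acid list (up to 6.16%). The 6 were TTR, ITIH1, ITIH2, ITIH3, C8A and VTN. Of all named coding genes, 16.5% had such a peak in the high list, against 3.13% for the low list. The plasma protein genes are short, with a median length of 13.8 kb as against 25.6 kb for all named coding genes. Each gene was therefore also set beside coding genes of its own length class. Coding genes of like length had a gene-end peak in 17.3% of cases (high) and 3.13% of cases (low).

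Inside the gene, 20 of the 58 genes held a summit in the high list (34.5%; 22.5 to 48.1%), against 44.6% of all named coding genes and 36.2% at like length. In the low list 1 did, SERPING1 (1.72%; 0.0436 to 9.24%), against 14.9% and 8.84%. With 10 kb on either side included, 26 genes had a peak in the high list (44.8%; 31.7 to 58.5%), against 62.5% and 57.8%. In the low list 5 did (8.62%; 2.86 to 19%), against 21.9% and 16.7%. These counts put 23 genes in the high list only, 2 in the low list only (CRP and APOE) and 3 in both (SERPINF2, SERPING1 and ITIH2). As shares these are 39.7%, 3.45% and 5.17% of the 58 genes, where all named coding genes gave 46.0%, 5.39% and 16.5%, and those of like length 46.6%, 5.49% and 11.2%. The high list is 4.93 times as long as the low list. Cut to the 5735 peaks of smallest p, it had a peak within 10 kb at 8 genes (13.8%; 6.15 to 25.4%) while 23.9% of named coding genes had one. That comparison was not matched for gene length. There is no test between groups of 1 library, and intervals cover counting error only and treat genes as independent, although neighbours can share a peak.

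**Figure D1:**
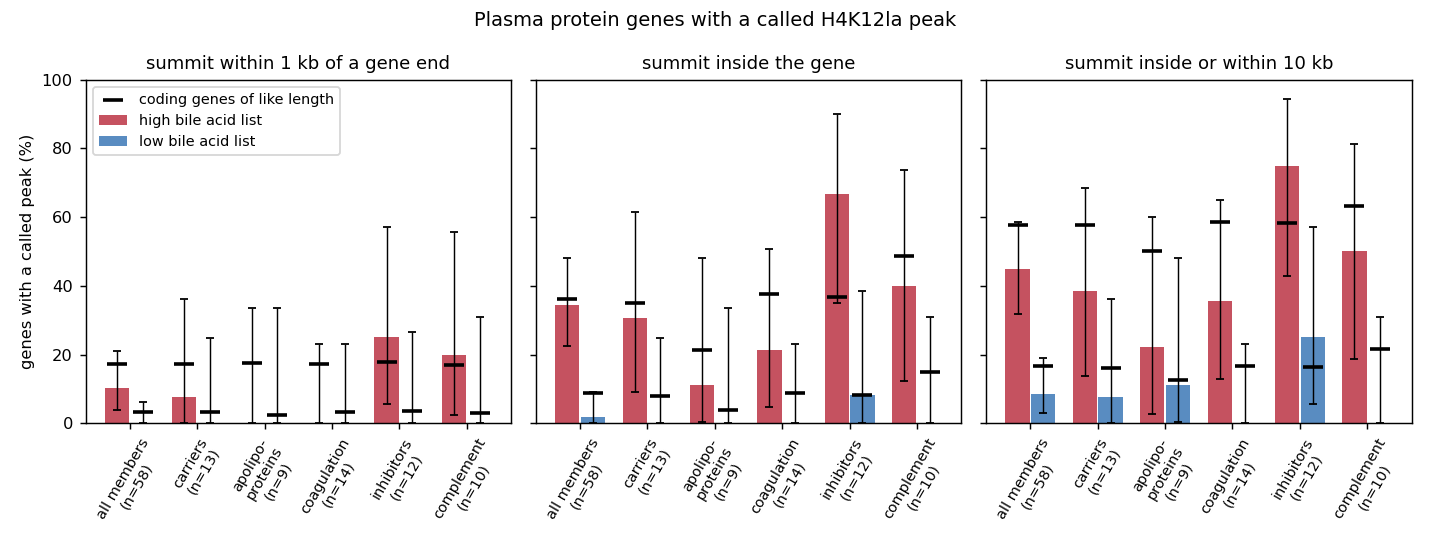
Share of plasma protein genes with a called H4K12la summit (y axis, percent) at a gene end, inside the gene, or inside or within 10 kb, for all 58 genes and by role. Red bars are the high and blue bars the low bile acid list, whiskers are exact 95% intervals, and black dashes give coding genes of like length. The bars of all 58 genes lie below their dashes in all 3 panels, while those of the 12 inhibitors and related genes in the high list lie above theirs.

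The genes also lay farther from peaks than other coding genes did. The median distance from a gene to the nearest summit for the plasma protein genes was 10.9 kb in the high list, against 135 kb for the low list, while all named coding genes had medians of 1.78 kb and 74.1 kb. These distances were not adjusted for gene length, and a shorter gene is less likely to contain a summit. The roles differed in this, without a test. The median distance in the high list was 0 kb for the inhibitors and related genes, 10.8 kb for complement, 12.6 kb for carriers, 14.3 kb for coagulation and 24.8 kb for apolipoproteins. The low list gave another order. There the medians were 46.4 kb for apolipoproteins, 80.1 kb for coagulation, 87.6 kb for the inhibitors and related genes, 191 kb for complement and 193 kb for carriers.

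**Figure D2:**
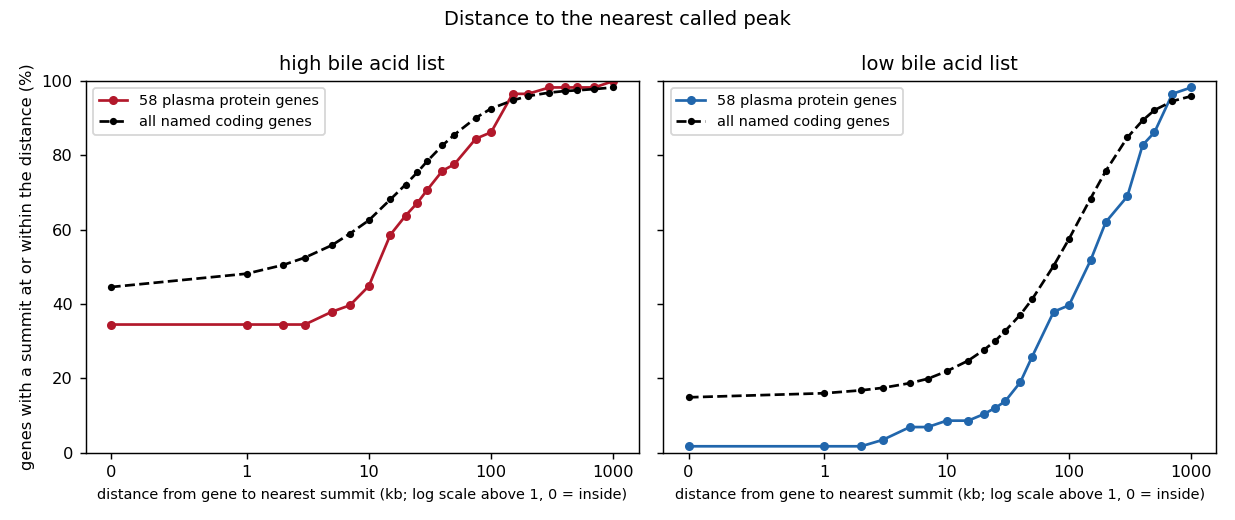
Share of genes (y axis, percent) whose nearest summit lies inside the gene or within the distance on the x axis (kb, log scale above 1), for the high list on the left and the low list on the right. Solid lines are the 58 plasma protein genes and dashed lines all named coding genes. At 10 kb the solid line stands at 44.8% (high) and 8.62% (low), and the dashed line at 62.5% and 21.9%.

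Among the 13 carriers, 5 had a peak within 10 kb in the high list, against 1 in the low list, where like-length genes would give 7.5 and 2.1. ALB, which encodes albumin, the main carrier and most abundant protein of plasma, lies at chromosome 8, 69643427 to 69663152. Its nearest summit was 144 kb away in the high list, against 417 kb away in the low list. AFP, which encodes the fetal albumin-like carrier alpha-fetoprotein, is its neighbour and had its nearest summits at 108 kb and 381 kb. GC, which encodes the vitamin D binding protein, had them at 55.8 kb and 663 kb. None of these 3 related genes on chromosome 8 had a peak within 10 kb in either library.

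TTR, which encodes the thyroxine and retinol-complex carrier transthyretin, was the only carrier with a gene-end peak. TTR lies at chromosome 6, 115496338 to 115503974, and its high-list peak spans 115497269 to 115497806, with the summit 932 bp inside the lower-coordinate end. The annotation used here gives no strand, so the start and the finish of a transcript were not told apart. The fold over the local background was 2.21 with a q of 0.711, where fold and q are the authors' values for a library against its own input. The fold and p of the peak correspond to 8 fragments at the summit (exact Poisson 95% interval 3.45 to 15.8) over 3.08 expected. A stronger peak of fold 3.77 (q 0.0845) lay 8797 bp outside TTR, in no other named coding gene, and a weak one of 2.20 lay 2210 bp beyond the other end. The low list had its nearest summit 315 kb from TTR.

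TF, which encodes the iron carrier transferrin, has 2 adjoining models. The one at chromosome 13, 74930655 to 74970599 held 3 high-list peaks, of fold 3.67 (q 0.101), 2.34 and 2.08, all more than 8 kb from either end. The other model had none within 10 kb. CP, which encodes the copper-carrying ferroxidase ceruloplasmin, held 3 inside the gene, of fold 2.86 (q 0.326), 2.51 and 2.47, and 1 of 2.47 in its flank. The peak of 2.51 also lies inside the neighbour HPS3, whose annotated span overlaps CP. AMBP, which encodes the alpha-1-microglobulin and bikunin precursor, had 1 internal peak of 2.45. RBP4, the retinol carrier, had 1 of 2.34 at 8714 bp, inside PDE6C.

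CRP, the acute-phase pentraxin, was the only carrier called in the low library, with a peak of fold 3.20 (q 1) 3078 bp outside its longer model, on 10 fragments over 2.06 expected. Its nearest high-list summit was 52.1 kb from the gene. The remaining carriers, AHSG, FETUB, HPX and ORM1, had none within 10 kb in either list. Their nearest high-list summits lay 31.0, 10.6, 31.6 and 12.6 kb away, so FETUB and ORM1 missed the 10 kb limit by little.

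The apolipoproteins, the smallest group, had the fewest high-list peaks within 10 kb, but not the fewest low-list peaks. Of 9 genes, 0 bore a gene-end peak in either list. In the high list 1 had an internal peak (1.93 at like length) and 2 had one within 10 kb (4.52 at like length), while in the low list 1 had one within 10 kb (1.14 at like length). APOB, which encodes the structural protein of very low and low density lipoproteins and is the longest of the 9 at 66105 bp, had a single internal peak of fold 2.34 (q 0.548) in the high list, near the middle of the gene. APOM, an HDL-associated lipocalin, had 1 peak of 2.86 at 6240 bp, which lies inside BAG6. APOE, the ligand for lipoprotein receptors, had no high-list peak within 10 kb but 1 low-list peak of 2.22 (q 1) 2136 bp outside the gene. That peak rested on 14 fragments (7.65 to 23.5), the most of any low-list peak near these genes, over the highest expected number, 5.0. The nearest high-list summit lay 10.4 kb from APOE.

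APOA1, APOC3, APOA4 and APOA5 encode the main HDL protein, an inhibitor of lipoprotein lipase, an intestinal and hepatic HDL component and an activator of triglyceride clearance. They share a cluster of 40.5 kb on chromosome 9, 44177834 to 44218360. Neither list had a peak inside it, and the nearest summit was 76.8 kb away in the high list, against 32.1 kb in the low list. APOA2 and APOH had their nearest high-list summits at 18.4 and 24.8 kb.

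Among the 14 coagulation and fibrinolysis genes, 0 bore a gene-end peak in either list, while like-length genes would give 2.41 (high) and 0.455 (low). In the high list 3 genes had an internal peak (5.26 at like length) and 5 had one within 10 kb (8.20). In the low list 0 of 14 had one within 10 kb (up to 23.2%; 2.32 genes at like length). F2, which encodes prothrombin, carried most, with 3 internal peaks of fold 3.17 (q 0.232), 3.03 and 2.29 and 1 of 2.60 in the flank. The internal ones lay between 51.4 and 74.2% of the way along the gene at chromosome 2, 15793257 to 15819151. F12, which encodes the contact-phase factor XII, had internal peaks of 3.39 (q 0.167) and 2.90, and another of 2.56 in its flank inside GRK6. F10, the gene of the factor that cleaves prothrombin, had 1 internal peak of 2.47, and its neighbour F7 had none, with a nearest high-list summit at 12.7 kb.

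FGA, FGB and FGG encode the 3 chains of fibrinogen and lie together at chromosome 8, 74553040 to 74607409. No peak of either list fell inside this cluster of 54.4 kb. In the high list, 1 peak of fold 3.36 (q 0.232) lay 4818 bp outside FGG and 1 of 2.78 lay 7820 bp outside FGB, at an end of the neighbour PLRG1. The nearest low-list summit was 531 kb away. KNG1, which encodes kininogen, and HRG, which encodes histidine-rich glycoprotein, adjoin the fetuin genes AHSG and FETUB on chromosome 13. This cluster of 131 kb held 1 high-list peak, between the fetuin genes and over 10 kb from either. PLG, the plasminogen gene, lay just past the limit, with a high-list summit 10047 bp away. F5, PROC and F11 had their nearest at 16.0, 21.9 and 245 kb. F9, on chromosome X, had its nearest at 876 kb in the high list, against 24112 kb for the low list.

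The 12 protease inhibitors and related genes stood at the other end of the high-list counts. The group includes SERPINF1, which encodes the anti-angiogenic factor PEDF, AGT, which lacks inhibitor activity, and the heavy-chain genes ITIH1 to ITIH4. Its high-list gene-end peaks were all at ITIH1, ITIH2 and ITIH3, so the counts describe the mixed group and not inhibitors alone. In the high list, 3 of 12 bore a gene-end peak (25%; 5.49 to 57.2%; 2.12 genes at like length), 8 had an internal peak (66.7%; 34.9 to 90.1%; 4.42 genes) and 9 had one within 10 kb (75%; 42.8 to 94.5%; 6.99 genes). For the low list the counts were 0, 1 and 3, against 0.418, 0.991 and 1.97. Over the bodies and 10 kb flanks of this mixed group there were 41.3 high-list peaks per Mb (18 peaks; exact Poisson 95% interval 24.5 to 65.2). All named coding genes, not matched for length, gave 15.1 per Mb, and the apolipoproteins gave 8.13 per Mb (2 peaks; 0.984 to 29.4). Some of the 18 peaks of the mixed group also lie inside other named coding genes. They include every internal peak of ITIH1 (in NEK4) and of SERPINF1 (in SMYD4). With peaks inside another named coding gene left out, 18 plasma protein genes rather than 20 had an internal high-list peak. ITIH1 and SERPINF1 were the genes lost. The like-length counts were not redone in this way.

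ITIH1, ITIH3 and ITIH4 encode members of the inter-alpha-trypsin inhibitor heavy chain family and adjoin on chromosome 13, 34892335 to 34948250. This cluster held 4 high-list peaks and no low-list peak, and the nearest low-list summit was 338 kb away. ITIH1 had internal peaks of fold 3.70 (q 0.101), 2.21 and 3.12, the last with its summit 269 bp from an end of the gene. The annotated span of the kinase gene NEK4, chromosome 13, 34844972 to 34909028, covers ITIH1 entirely, so these 3 peaks cannot be assigned to 1 of the 2 genes. ITIH3 had a peak of 2.92 with its summit 347 bp inside its lower-coordinate end and in no other named coding gene. It rested on 13 fragments (6.92 to 22.2) over 3.80 expected, as many fragments as the strongest peak of the set. ITIH4 had none within 10 kb, with its nearest high-list summit at 11.2 kb. ITIH2, on chromosome 10, had 1 gene-end peak of 3.02 (q 0.33) in the high list, 968 bp inside the gene, and a separate low-list peak of 2.63 (q 1) 3920 bp outside it, in KIN.

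SERPINF2 and SERPINF1 encode the plasmin inhibitor alpha-2-antiplasmin and the anti-angiogenic factor PEDF, and adjoin on chromosome 12. SERPINF1 held 2 high-list peaks of fold 2.67 and 2.63, which also lie inside SMYD4. SERPINF2 held 1 of 2.45, and 1 of 2.82 lay 1782 bp outside it in WDR81. The low list had 1 peak in this neighbourhood, of 2.92 (q 1), 8071 bp outside SERPINF2 and also in WDR81. SERPING1, which encodes the inhibitor of complement C1, was the only plasma protein gene with an internal peak in both lists. At chromosome 2, 13324160 to 13338826, its high-list peak of 3.58 (q 0.139) spans 13336610 to 13337364 and its low-list peak of 2.14 (q 1) spans 13335642 to 13336000. They do not overlap.

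AGT, the precursor of angiotensin and a member of the serpin family without inhibitor activity, had 1 internal high-list peak of fold 2.86 and flanking ones of 3.02 and 3.38 (q 0.139), the last inside COG2. A2M, which encodes the broad protease trap alpha-2-macroglobulin, had internal peaks of 3.02 and 2.08. SERPINA1, which encodes the elastase inhibitor alpha-1-antitrypsin, had peaks of 3.02 and 2.56 in its flank, 7582 and 3210 bp away. SERPINC1, the antithrombin gene, and SERPIND1, that of heparin cofactor II, had their nearest high-list summits at 26.5 and 12.5 kb.

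**Figure D3:**
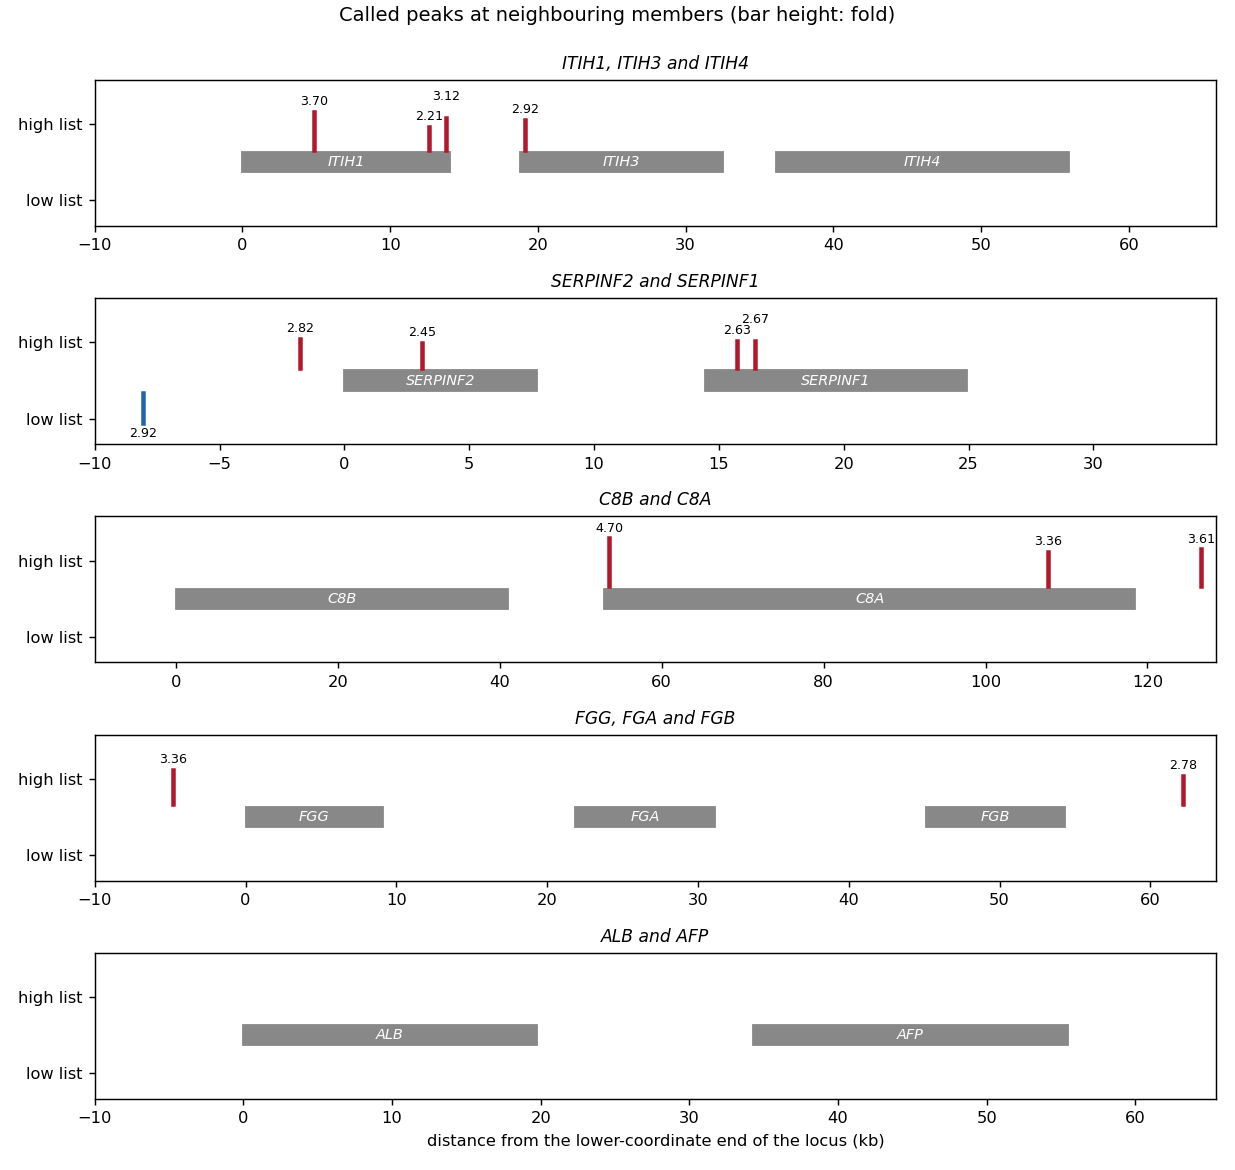
Maps of 5 groups of neighbouring genes, with distance in kb from the lower-coordinate end of each group on the x axis. Grey boxes are genes, red bars above are high-list summits and blue bars below are low-list summits, with bar height and number giving the fold. Peaks lie inside ITIH1, ITIH3, SERPINF2, SERPINF1 and C8A, outside the fibrinogen genes, and nowhere near ALB and AFP.

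Of the 10 complement genes, 2 bore a high-list gene-end peak (1.69 at like length), 4 an internal peak (4.86) and 5 one within 10 kb (6.34). In the low list 0 of 10 had one within 10 kb (up to 30.9%; 2.16 genes at like length). C8A, which encodes a pore-forming chain of the membrane attack complex, carried the strongest peak of all 58 genes. It lies at chromosome 6, 155464855 to 155530473, and the peak spans 155465351 to 155465776, with the summit 657 bp inside the lower-coordinate end. The fold was 4.70, p was 2.6e-08 and q was 0.0106, which ranks 85 by p in the high list. It was the only peak near these genes with q under 0.05. At that threshold 1 of 58 genes (1.72%) had a peak within 10 kb, as against 3.59% of named coding genes. C8A had a further internal peak of 3.36 and a flanking one of 3.61 (q 0.139). C8B, the neighbouring gene of another chain, had none within 10 kb, with its nearest high-list summit at 12.5 kb.

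VTN, which encodes vitronectin, an adhesion protein that also restrains the membrane attack complex, had peaks near both ends. VTN spans only 3385 bp at chromosome 12, 44650532 to 44653916, and its high-list peaks had folds of 3.55 (q 0.139) and 3.12 (q 0.232), 748 and 795 bp inside the ends. CFI, the protease that cleaves C3b, had internal peaks of 2.78 and 2.41, and C3, the central complement component, had 1 of 2.47 at 2174 bp from an end. C9 had 1 of 3.02 in its flank. C7, C6, CFB and C5 had their nearest high-list summits at 19.1, 44.8, 58.1 and 127 kb.

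**Figure D4:**
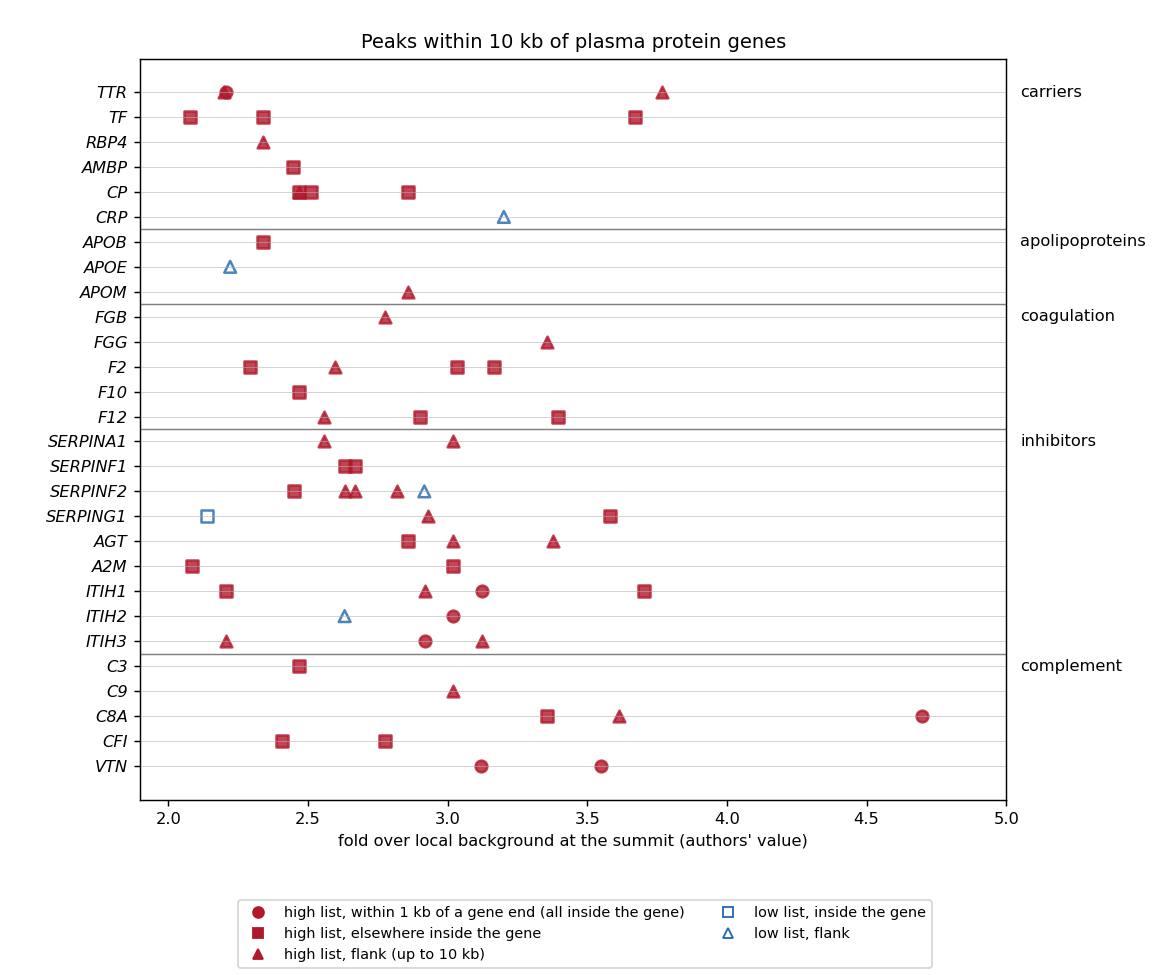
Fold over the local background at the summit (x axis, the authors' values) of each peak within 10 kb of a plasma protein gene (rows, by role). Filled red symbols are the high list and open blue symbols the low list, circles are gene-end, squares other internal and triangles flanking peaks, and a peak near 2 genes appears in both rows. C8A stands highest at 4.70, and all other peaks lie between 2.08 and 3.77.

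In all, 51 high-list and 5 low-list peaks lay within 10 kb of these genes. Over the 2.498 Mb of bodies and flanks this was 20.4 peaks per Mb in the high list (15.2 to 26.8) and 2.0 per Mb for the low list (0.65 to 4.67), where all named coding genes gave 15.1 and 3.01 per Mb. Per length, then, the high-list density was not below that of all named coding genes, which were not matched for length. A smaller share of the plasma protein genes, however, had a peak within 10 kb. In gene bodies alone the high-list density was 23.4 per Mb (16.2 to 32.7), against 14.6. The inhibitors and related genes held 18 of the 51 peaks, at 41.3 per Mb. Carriers gave 20.3, coagulation 17.4, complement 13.7 and apolipoproteins 8.13 per Mb. Of the 51 peaks, 34 lay inside 20 genes, where over all named coding genes 15665 lay inside 7265. The plasma protein genes are shorter, and at like length the share with an internal high-list peak was 34.5% against 36.2%. The median fold was 2.86 for high-list and 2.63 for low-list peaks, against 2.90 and 2.98 over all peaks, and the median width was 373 and 483 bp, against 355 and 338 bp. A fold of 3 or more was found at 20 of the 51 high-list peaks (39.2%, against 45.2% of all high-list peaks) and at 1 of the 5 low-list peaks (47.4% of all low-list peaks). Of the high-list peaks 34 had the summit inside a plasma protein gene, and 6 of these also lay inside another named coding gene. The 7 gene-end peaks all had their summits inside the gene. No high-list peak near these genes overlapped a low-list peak, and over all 28283 high-list peaks 207 did (0.732%).

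A call in 1 list only does not show a difference in occupancy. The high-list peaks rested on 6 to 13 fragments and the low-list peaks on 9 to 14. For each peak, the smallest number of fragments that would pass the caller's cutoff in the other library, over the same expected number, was computed, and for 0 of the 51 high-list and 0 of the 5 low-list peaks did the counting interval of the fragments lie at or above that limit. C8A came closest, with 13 fragments (6.92 to 22.2) over 1.98 expected and a limit of 7 in the low library. That limit was the lowest in the low library, and no high-list peak here had more than 13 fragments. The 0 of 51 was therefore set by depth and is not a result about these genes. The same count over all peaks is not given here. Where the background was at its lowest, a call took 6 fragments in the high library, against 7 in the low library, so a gene without a peak may still carry the mark below that level. The low library's counts at high-list peaks are not in the lists.

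**Figure D5:**
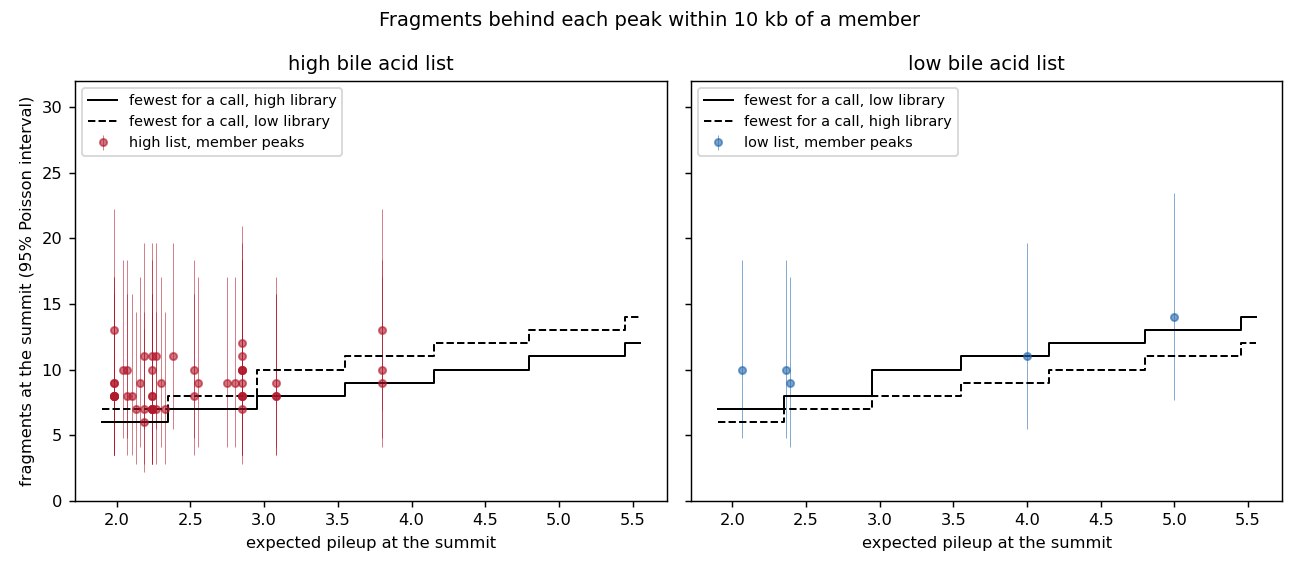
Fragments at the summit (y axis, with exact Poisson 95% intervals) against the expected pileup (x axis) for the 51 high-list peaks on the left and the 5 low-list peaks on the right. Solid steps give the fewest fragments for a call in the same library and dashed steps in the other library. The intervals of all peaks reach below the dashed steps.

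A wider list of other plasma proteins and liver-secreted factors was counted in the same way. Of its 58 genes on the chromosomes, 9 bore a high-list gene-end peak (15.5%; 7.35 to 27.4%; 9.99 genes at like length) and 1 in the low list (1.73 genes at like length). Inside the gene, 19 had a peak in the high list (32.8%; 21.0 to 46.3%; 32.6% at like length) and 4 in the low list (6.9%; 8.02% at like length). Within 10 kb, 37 had one in the high list (63.8%; 50.1 to 76.0%; 56.2% at like length) and 6 in the low list (10.3%; 16.0% at like length). MASP1, a protease of the lectin pathway of complement, had a gene-end peak in both lists, of fold 3.98 (q 0.0548) and 3.12 in the high list and 3.0 (q 1) in the low list. C1R, a protease of the classical pathway, had 3.98 (q 0.0399) in the high list, and IGFBP2, which binds insulin-like growth factors, had 3.25.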

How the data were processed

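Per the labels' protocols, cells were fixed in formaldehyde (1%) and sonicated, and libraries were made from 10 ng of DNA with 13 amplification cycles. Per the submitters' processing notes, the named tools are MACS2 2.1.0, a peak caller, Bowtie 1.1.2, an aligner, Trimmomatic 0.33 and bcl2fastq 2.17, and the named builds are Sscrofa11.1 and hg38. Pig coordinates were used, since the peaks lie on chromosomes named as in the pig; the planned promoter motifs were not searched. The deposited fold is a ratio over the local background; the p-values and q-values were taken from the deposited −log10 columns, and the deposited score was not used. Peaks were called per library, and the largest p was 0.00989. Fragments and expected pileup were solved from fold and p (100% of peaks whole, within 0.01 in −log10 p) after a caller scaling of 1.0 for the high library and 0.881 for the low library, and the method was tested on simulated data. The RefSeq table gives no strand or exons. Windows used summits. All genes and lists were chosen with earlier results of these data known. All 58 placed genes are accounted for, and those with a peak within 10 kb, and ALB, are given with values; lists outside the 58 are counted, with names where at most 5 genes had a gene-end peak and otherwise the 3 of highest fold. Marker lists of other liver cell types are not reported here. Work was done in Python 3.11.15 with scipy 1.17.1.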

Additional observations from a re-analysis of the deposited data

How the results depend on the processing

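No paired analysis was possible because a group holds a single antibody library, and no replicate could be left out. Of 36 alternative counts, 20 stayed within 1.5 times the reported one and 16 did not. Gene-end peaks in the high list numbered 12 with a window of 3 kb, 2 with 500 bp, 1 at q under 0.05 and 2 at the length of the low list, against 6 as reported, and in the low list 2 with 3 kb against 0. Internal peaks in the high list numbered 1 at q under 0.05, 9 at a fold of 3 or more and 6 at the length of the low list, against 20, and in the low list 0 and 0 at the q and fold thresholds, against 1. Within 10 kb, the high list had 1, 15 and 8 genes under the same 3 settings, against 26, and the low list 0 at q under 0.05, 1 at a fold of 3 or more and 3 without peaks inside another coding gene, against 5. As shares of the plasma protein genes in the high list, at q under 0.05, at a fold of 3 or more and at the length of the low list, internal peaks came to 1.72%, 15.5% and 10.3%, against 2.12%, 27.3% and 15.9% of all named coding genes, and peaks within 10 kb to 1.72%, 25.9% and 13.8%, against 3.59%, 40.2% and 23.9%. At gene ends the shares were 1.72%, 6.9% and 3.45%, against 0.736%, 8.29% and 4.65%. With flanks of 5 and 25 kb in place of 10 kb, the high list had 22 and 39 genes. These were 37.9% and 67.2%, against 55.8% and 75.5% of all named coding genes. The low list had 4 and 7 genes (6.9% and 12.1%, against 18.7% and 30.1%). None of these shares was matched for gene length. The setting without peaks inside another coding gene was chosen after seeing the data. Stricter and shorter lists hold fewer peaks by construction. The planned restriction to start sites was not run, since no strand was used here. Depth limits all calls. Where the background was lowest, 6 fragments made a peak in the high library and 7 in the low library. Over 5.0 expected, a call took 11 and 13.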

Other observations

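Other gene groups of the liver were counted at gene ends as well. Among 29 enzymes typical of hepatocytes, 5 bore a high-list gene-end peak (4.99 at like length) and 0 in the low list (0.966). They were FABP1, a fatty acid binding protein, with a fold of 3.49 (q 0.139), GNMT, a glycine methyltransferase, with 3.28, ASL of the urea cycle with 3.09, UGT2B31 with 2.61 and BHMT, a betaine methyltransferase, with 2.09. Inside the gene, 14 of the 29 enzymes had a high-list peak (48.3%; 29.4 to 67.5%; 41.4% at like length) and 2 a low-list peak (6.9%; 10.8% at like length). Within 10 kb, 18 of the 29 enzymes had a high-list peak (62.1%; 42.3 to 79.3%; 60.2% at like length) and 2 a low-list peak (6.9%; 18.3% at like length).

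Of 42 genes of the secretory machinery, through which plasma proteins leave the cell, 4 bore a high-list gene-end peak (7.10 at like length) and 1 in the low list (1.33). SRP72, a subunit of the signal recognition particle, had a fold of 4.36 (q 0.031), LMAN1, a cargo receptor for coagulation factors, 3.36, SEC61B, a subunit of the translocon, 3.23 and SPCS1, a signal peptidase subunit, 3.17. SEC31A, a coat protein of vesicles, had 2.90 (q 1) in the low list. Inside the gene, 9 of the 42 had a high-list peak (21.4%; 10.3 to 36.8%; 39.1% at like length) and 5 a low-list peak (11.9%; 10.5% at like length). Within 10 kb, 20 had a high-list peak (47.6%; 32 to 63.6%; 59.6% at like length) and 8 a low-list peak (19.05%; 18.1% at like length).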
